A study of Mus musculus with 9 samples.

Results

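The translation initiation and elongation factor genes were measured by RNA sequencing in regulatory T (Treg) cells from mouse spleen. They were taken from the count table by symbol: every gene whose symbol begins with Eif1 to Eif6 or with Eef1, and Eef2, without symbols that contain "ak" (the eIF2 alpha kinases and an eEF1A methyltransferase) or end in "-ps" (pseudogenes). This pattern matched 63 of 54232 genes, and 58 were left after the name rule. Of these, 55 had at least 10 counts in at least 3 libraries, a rule that uses no difference between groups. All 55 were also among the 14994 genes tested. Of the 3 that missed the count rule, Eef1a2, the eEF1A form of muscle and nerve, and Eif4e1b, an egg cell form of the cap-binding protein, had 0 counts in every library, and Eif3j2, a near copy of Eif3j1, had 2 to 10.

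The 9 libraries held 3 each of 3 genotypes, numbered in the labels as biological samples. WT cells carried neither loss. Usp21 KO cells are labelled as a Treg knockout of Usp21, a deubiquitinase. The dKO cells are labelled as a Treg knockout of Usp21 together with Usp22, the deubiquitinase subunit of the SAGA coactivator complex. All were sorted by the yellow fluorescence of a reporter for Foxp3, which encodes the defining transcription factor of Treg cells, and no treatment is listed. The design had no group that lacked Usp22 alone, so dKO against Usp21 KO shows the added loss of Usp22 only where Usp21 is also lost. The series text calls the cells naive natural Treg cells. Strain, age, sex, litter and the Cre driver are not given in the sources used here, so the losses and any other difference between the mouse lines cannot be told apart.

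Initiation factors bring the small ribosomal subunit and the initiator tRNA to the start codon of an mRNA. eIF2 carries the initiator tRNA, eIF3 is the large scaffold on the small subunit, and the eIF4 factors bind and unwind the capped 5′ end. Elongation factors then move the ribosome along: eEF1A delivers each aminoacyl-tRNA, the eEF1B subunits reload eEF1A with GTP, and eEF2 drives translocation. Several of these mRNAs belong to the 5′ terminal oligopyrimidine (TOP) class, which begins with a C and a run of pyrimidines and is translated under control of mTOR and LARP1, a control that T cells engage when they are activated.

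The libraries matched their labels. Usp21 stood at 63.3 ± 2.72 CPM (counts scaled to the size of the library; mean ± SD, n = 3) in WT, against 25.4 ± 2.49 in Usp21 KO and 27.9 ± 1.59 in dKO. Usp22 stood at 71.1 ± 1.74, 73.8 ± 8.64 and 25.4 ± 3.58 CPM in the same order. Foxp3 was counted in every library, at 659.9 ± 34.2 CPM in WT and 730.0 ± 85.3 in Usp21 KO, against 333 ± 36.5 in dKO. Total counts ran from 18067377 to 40334577 per library. Several other measures moved with the genotype. In dKO against WT, 18 of 20 cell cycle genes rose. The count was 12 with the replicate number as a block and 13 without a filter. It was 15 without WT replicate 3, 4 without WT replicate 1, and 6 to 8 without any 1 of the other 4 libraries. The summed level of the 20 genes was 520.5, 548 and 649.9 CPM in WT, 708, 1157 and 746 in Usp21 KO and 1287, 1154 and 1169 in dKO. The summed level of 6 myeloid markers was 166, 25.7 and 182 CPM in WT, 33.0, 136 and 144 in Usp21 KO and 722, 257 and 532 in dKO. In dKO against WT, 0 of these 6 passed the test, and in dKO against Usp21 KO 1 of 6 did, Itgam, which was higher, a call lost without any 1 of the dKO libraries or Usp21 KO replicate 1. The call of Itgam was also lost with the replicate number as a block and in the fit of the dKO and Usp21 KO libraries alone. Lyz2 gave most of the myeloid sum. The 4 erythroid markers measured summed to 16.5, 12.4 and 16.1 CPM in WT, 29.4, 34.5 and 17.1 in Usp21 KO and 23.0, 43.2 and 42.0 in dKO; in dKO against WT 2 rose, Hba-a2 (adjusted p = 0.0183) and Alas2 (0.0327), and each call was lost in 5 of the 6 fits without 1 library, all but that without dKO replicate 1. With the replicate number as a block, and in limma voom, the call of Alas2 was also lost. The 6 CD8 T and NK cell markers summed to 52.9, 45.3 and 53.1 CPM in WT, 34.4, 45.8 and 44.8 in Usp21 KO and 66.5, 64.3 and 64.5 in dKO, with 1 called, Klrb1c, higher in dKO than in WT (adjusted p = 0.0133, held in 2 of the 6 such fits, those leaving out WT replicate 3 and dKO replicate 1) and than in Usp21 KO (0.00344, held in all 6). The 6 B cell markers summed to 37.4, 19.4 and 41.6 CPM in WT, 22.6, 35.9 and 36.2 in Usp21 KO and 34.6, 46.5 and 38.4 in dKO, with Pax5 higher in dKO than in Usp21 KO (adjusted p = 0.0409, lost without Usp21 KO replicate 1 or any 1 of the dKO libraries). Like that of Itgam, the call of Pax5 was also lost with the block and in the fit of the dKO and Usp21 KO libraries alone. The 7 Treg markers summed to 4131, 4211 and 4049 CPM in WT, 4226, 4394 and 4062 in Usp21 KO and 3311, 3582 and 3395 in dKO, and 2 fell in dKO against WT, Foxp3 (adjusted p = 0.00141, held in all 6 fits without 1 library) and Tnfrsf18 (0.0299, lost in all 6 and by library totals). No marker of these lists was at 0 counts in any library. The part of these shifts in the values below was not tested.

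Eef2 and Eef1a1 stood far above the rest of the machinery, while Eef1d, Eef1g and Eef1e1 lay among the initiation factors. Scaled to exon length, Eef2 had the highest level in WT, 1742 ± 124 CPM per kb (SD, n = 3), and Eef1a1 was next at 1289.9 ± 22.6 CPM per kb. The highest initiation factor genes were Eif3f at 238 ± 8.85, Eif3h at 203 ± 8.55, Eif5a at 174 ± 13.6 and Eif4b at 162 ± 9.997 CPM per kb, below Eef1b2 at 278 ± 3.94. At the other end stood Eif4ebp3 at 0.611 ± 0.459, Eif3j1 at 1.22 ± 0.0771, Eif2s3x at 1.96 ± 0.229 and Eif5a2 at 2.42 ± 0.302 CPM per kb. Lengths are those of all annotated exons of a gene merged, so a gene with many long isoforms is understated. The 55 genes together took 1.81% to 2.07% of all counts of a library, and Eef2 alone took 0.488% to 0.608%.

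**Figure D1:**
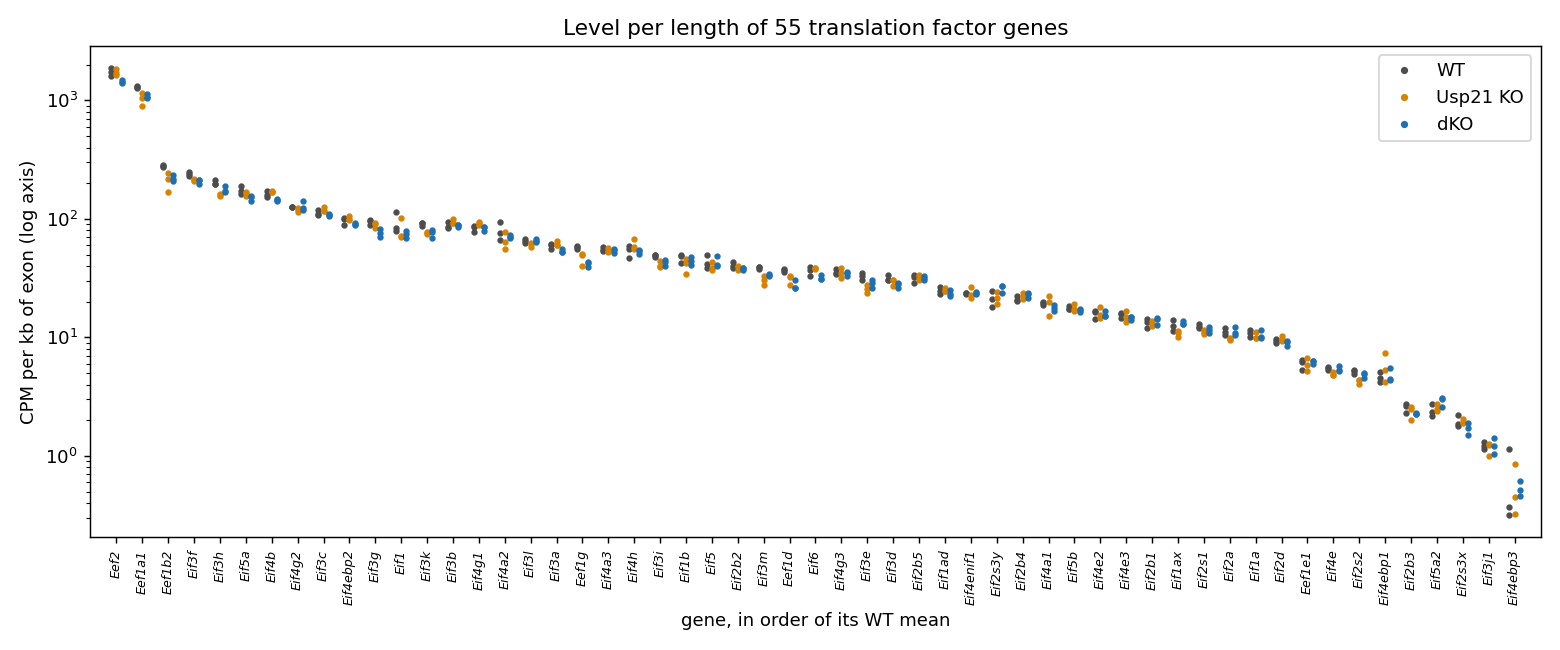
Level per length of the 55 translation factor genes in each of the 9 libraries (CPM per kb of exon, log axis), ordered by the WT mean. Points are libraries, coloured by genotype. Eef2 and Eef1a1 stand apart at the left, and the WT means run from 1742 for Eef2 down to 0.611 for Eif4ebp3.

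Differences between genotypes were small throughout the machinery. In Usp21 KO against WT, 0 of the 55 genes passed an adjusted p of 0.05 in edgeR's quasi-likelihood test. Of all genes tested, 0.0133% passed (0.00667% higher and 0.00667% lower). At an unadjusted p under 0.05 there were 14 (25.5%), all lower in Usp21 KO, against 10.6% of all genes. DESeq2 called 5 (9.09%), all lower, against 1.44% of all genes, and limma voom called 0. In dKO against WT, 3 of 55 fell (5.45%), Eef1d, Eef1g and Eif3g, and 0 rose. Over all genes 5.78% passed, 2.77% lower and 3.01% higher, so the share of members called in either direction was close to the background. At an unadjusted p under 0.05 there were 17 (30.9%), of which 16 were lower, against 22.4% of all genes. DESeq2 called 7 (12.7%), all lower, against 10.5%. In dKO against Usp21 KO, 0 of 55 passed, against a background of 4.9% of genes (1.7% higher and 3.2% lower). Here 11 (20%) had an unadjusted p under 0.05, 7 lower and 4 higher, a share below the 23.6% of all genes. DESeq2 called 5 (9.09%), also below its 11.3% of all genes, and limma voom called 0. Without Usp21 KO replicate 2 the count in this comparison was 7 (12.7%), with Eef1g, Eef2, Eif3a, Eif3g, Eif4b and Eif6 lower and Eif1ax higher, while 14.1% of all genes passed in the same fit. That library had the lowest value of its group for 29 of the 55 genes, but so did WT replicate 2 and dKO replicate 3 in their groups. Its summed cell cycle level was 1157 CPM, above the other Usp21 KO libraries.

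Most of the 55 genes lay slightly below WT in both knockouts, though in dKO not by library totals. The median log2 fold change was -0.07 in Usp21 KO against WT, with 38 of 55 below 0, and -0.09 in dKO against WT, with 43 of 55 below 0. The medians over all genes tested were 0.01 and -0.01. With libraries scaled by their totals in place of TMM factors, the dKO median became 0.01, with 23 of 55 below 0, while the median of all genes became 0.09. Relative to the median of all genes, the members lay 0.08 lower in dKO under either scaling, and 39 of 55 were below that median under both. Rescaling shifts all genes by nearly the same amount, so this agreement was fixed in advance and is no check of the lower level. In dKO against Usp21 KO the median was -0.03, with 31 of 55 below 0; by library totals it was 0.07 with 18 below 0, and without Usp21 KO replicate 1 it was 0.02. Each pair of these comparisons shares a group of libraries, so their values are not independent. In bulk RNA of sorted cells, fewer cells of a kind and less RNA per cell cannot be told apart.

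Ranges over libraries gave a similar picture. In Usp21 KO, 17 of 55 genes (30.9%) had all 3 libraries below all 3 WT libraries, against 8% of all genes, and 1 gene, Eif4g1, had all 3 above (1.82% against 8.06%). In dKO, 17 of 55 (30.9%) lay wholly below WT, against 18.4% of all genes, and 0 wholly above, against 17.6%. Between dKO and Usp21 KO, 11 genes (20%) lay wholly lower in dKO, against 14.3%, and 6 (10.9%) wholly higher, against 13.1%. Ranges of single genes, here and below, are those of TMM-scaled CPM. By library totals, ranges were compared for summed classes only. There the eEF1A, eEF1B and eEF2 classes lay wholly below WT in dKO. The eIF2, eIF2A and eIF2D, and eIF4G classes lay wholly above it, and the other classes overlapped. The levels were tightly measured: the median coefficient of variation between replicates was 6.16% in WT and 6.30% in Usp21 KO, against 5.21% in dKO. The 95% interval of the fold change lay within 1.5-fold either way for 52, 50 and 53 of the 55 genes in the 3 comparisons. These shares were 94.5%, 90.9% and 96.4%, against 55.8%, 52% and 51.9% of all genes tested.

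**Figure D2:**
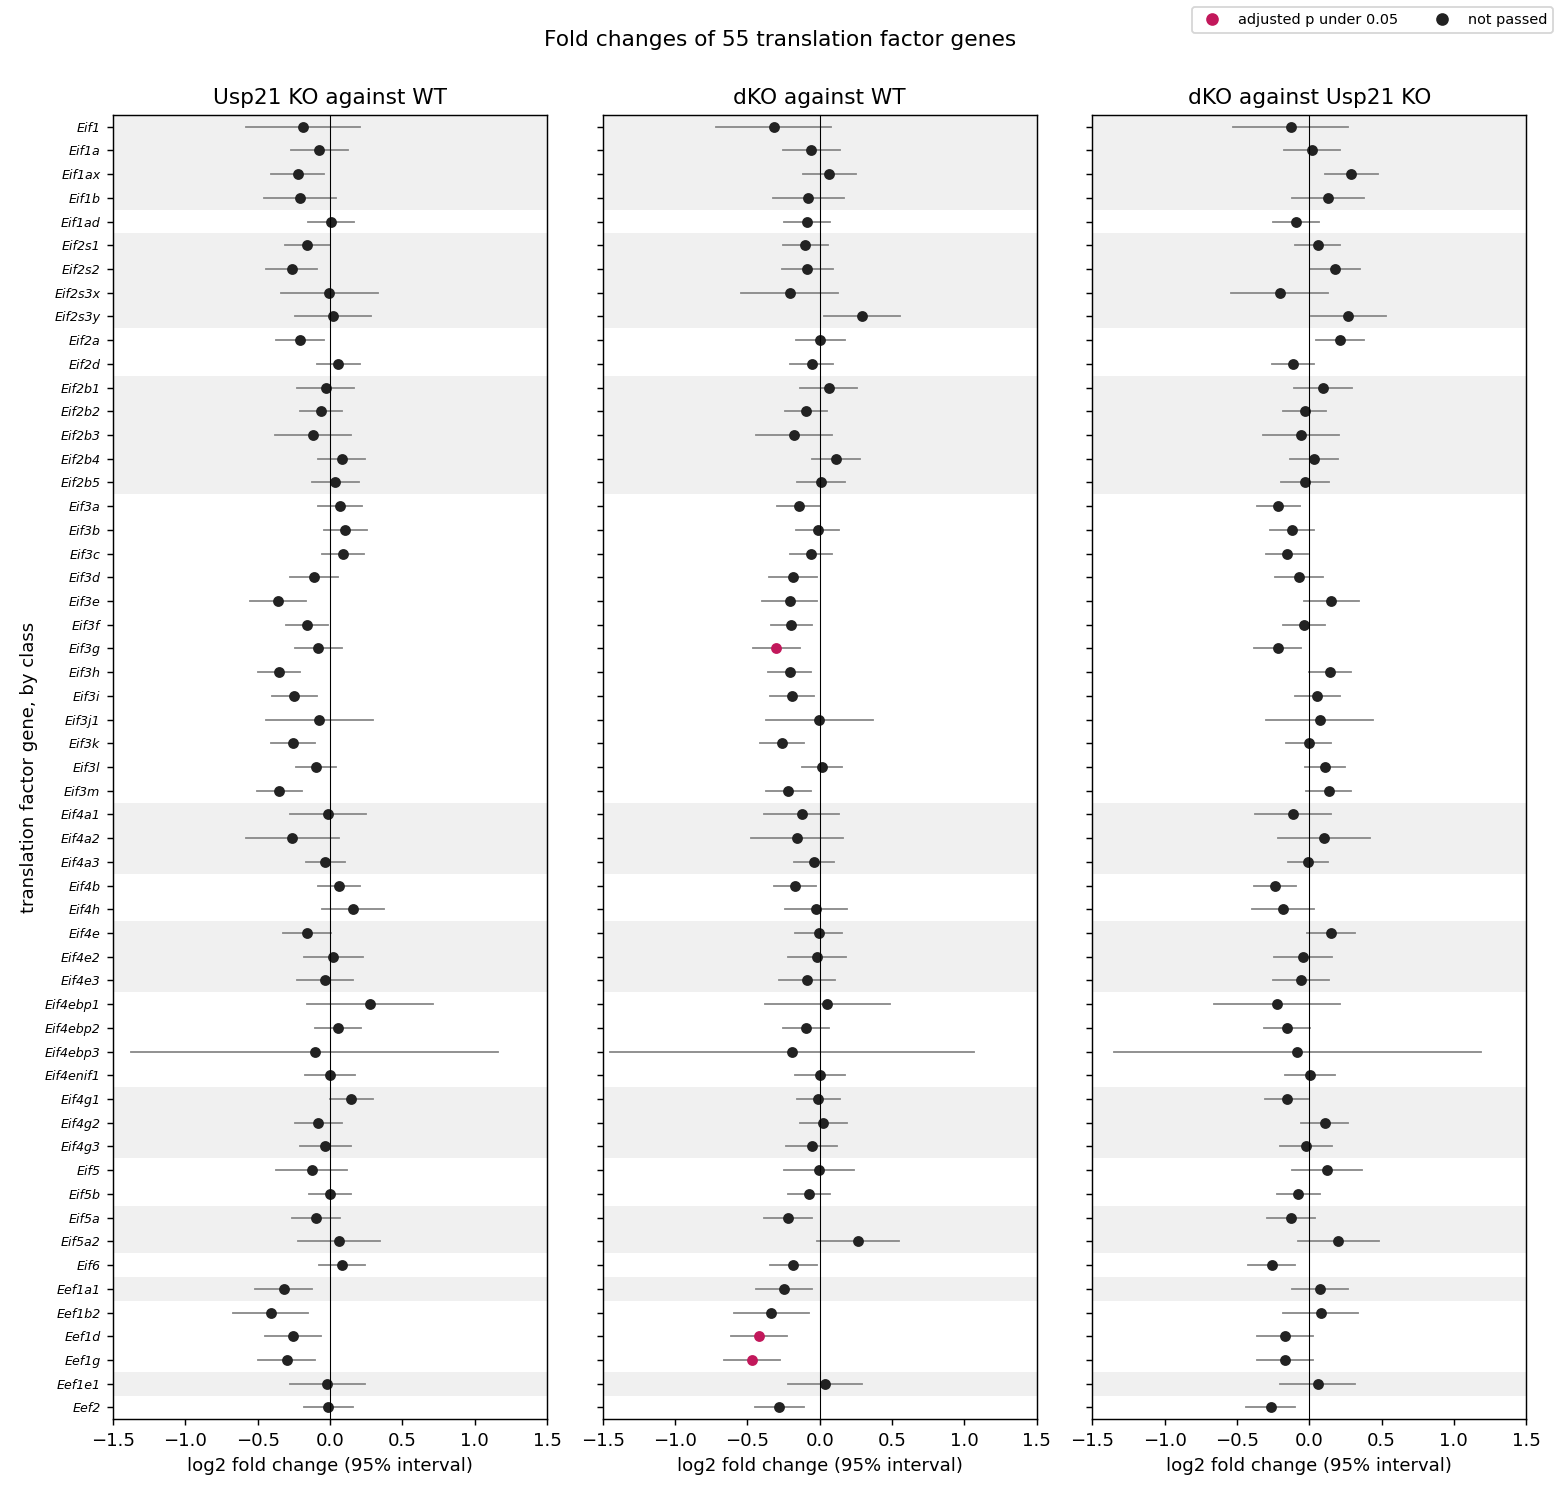
Log2 fold change of each of the 55 genes in the 3 comparisons, with its 95% interval as a line; genes are grouped by factor class in alternating bands. Points in magenta passed an adjusted p of 0.05, namely Eef1d, Eef1g and Eif3g in dKO against WT, and nearly all other points lie within 0.4 of 0.

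The eEF1B subunits were the class furthest below WT in both knockouts. The summed level of the 3 eEF1B subunits, Eef1b2, Eef1d and Eef1g, was 77.9% of WT in Usp21 KO and 77.4% in dKO. Library by library the sum was 1111, 1071 and 1098 CPM in WT, 888, 709 and 958 in Usp21 KO and 909, 828 and 801 in dKO, so neither knockout overlapped WT. By library totals the sums were 78.1% and 82.9% of WT, again without overlap. The eEF1B proteins exchange GDP for GTP on eEF1A; Eef1b2 and Eef1d encode exchange factor subunits and Eef1g a structural subunit.

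Eef1g (ENSMUSG00000071644, chromosome 19, 8967041 to 8978479, plus strand, GENCODE M21 on GRCm38) had 153, 145 and 151 CPM in WT, 129, 104 and 131 in Usp21 KO and 110.4, 112 and 103 in dKO. All 6 knockout libraries lay below all WT libraries. In dKO it fell, with a log2 fold change of -0.47 ± 0.09 (SE; adjusted p = 0.0146), and in Usp21 KO the change was -0.30 ± 0.09 (adjusted p = 0.308). Eef1d (ENSMUSG00000055762, chromosome 15, 75894205 to 75909556, minus strand) had 242, 231 and 245 CPM in WT, 212, 181 and 209 in Usp21 KO and 199.5, 169 and 168 in dKO, again with no overlap between WT and either knockout. It fell in dKO by a log2 fold change of -0.42 ± 0.09 (adjusted p = 0.0222) and stood at -0.25 ± 0.09 in Usp21 KO (adjusted p = 0.345). The calls in dKO rest on all 6 libraries: of the 6 fits that leave out 1 library, Eef1d passed only without dKO replicate 1 and Eef1g only without WT replicate 2, with log2 fold changes that stayed between -0.51 and -0.38 for Eef1d and between -0.49 and -0.43 for Eef1g.

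Eef1b2 had the largest fold change of any member in Usp21 KO, -0.41 ± 0.12 (adjusted p = 0.302), and -0.33 ± 0.12 in dKO (adjusted p = 0.127). Its libraries had 715, 696 and 702 CPM in WT, 547, 424 and 618 in Usp21 KO and 599.6, 548 and 530.0 in dKO. The WT values were close together, and Usp21 KO replicate 2 was the lowest of all. Eef1e1, which carries the eEF1 name but encodes a scaffold of the multi-tRNA-synthetase complex, stood at 19.6 ± 2.07 CPM in WT and 19.3 ± 2.39 in Usp21 KO, beside 20.2 ± 0.664 in dKO, with overlapping ranges.

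Eef1a1, the tRNA carrier itself (ENSMUSG00000037742, chromosome 9, 78478449 to 78489151, minus strand), had 3209, 3163 and 3275 CPM in WT, 2599.8, 2249.7 and 2869.9 in Usp21 KO and 2840.0, 2616 and 2682 in dKO. Its levels in the knockouts were 80.0% and 84.4% of WT, with every knockout library below every WT library. The log2 fold changes were -0.32 ± 0.09 in Usp21 KO (adjusted p = 0.301) and -0.25 ± 0.09 in dKO (adjusted p = 0.133). Eef1a1 has many near-identical processed pseudogenes, so reads may have been split or dropped in counting. DESeq2 called it lower in Usp21 KO, and the fit of the WT and dKO libraries alone called it lower in dKO.

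Eef2 did not follow the eEF1 genes in Usp21 KO. It (ENSMUSG00000034994, chromosome 10, 81176631 to 81182498, plus strand) had 5379, 5786 and 6204 CPM in WT, 6137, 5406 and 5690.4 in Usp21 KO and 4932, 4739 and 4654 in dKO. The WT and Usp21 KO libraries spanned the same range, and all dKO libraries lay below both. The mean was 99.2% of WT in Usp21 KO and 82.5% in dKO. The log2 fold change in dKO was -0.28 ± 0.08 against WT (adjusted p = 0.064) and -0.27 ± 0.08 against Usp21 KO (adjusted p = 0.0719), neither past the threshold in the edgeR fit. Without Usp21 KO replicate 2 the difference from Usp21 KO passed (adjusted p = 0.010), and DESeq2 called both (adjusted p = 0.00698 and 0.0103). For Usp21 KO against WT the 95% interval of the log2 fold change was -0.18 to 0.16.

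**Figure D3:**
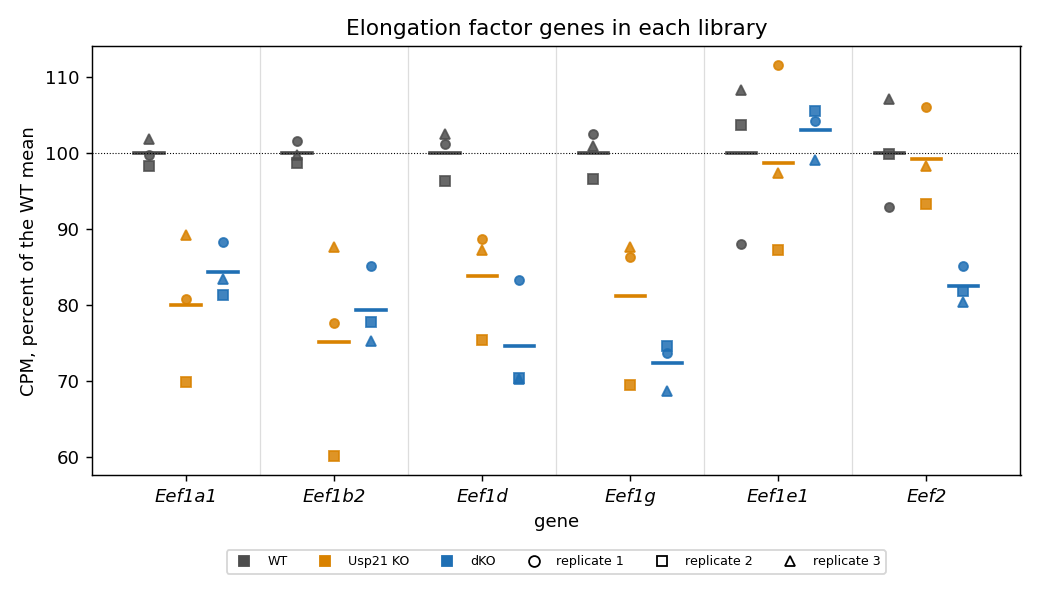
CPM of the 6 elongation factor genes in each library as a percent of the gene's WT mean; bars mark group means, colours the genotype and symbols the replicate number. Eef1a1, Eef1b2, Eef1d and Eef1g lie below WT in all 6 knockout libraries, whereas Eef2 lies below WT in dKO, at a mean of 82.5%, and at 99.2% in Usp21 KO.

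Many elongation factor mRNAs are known TOP mRNAs. Among the 55 genes, 10 are listed as such: Eef1a1, Eef1b2, Eef1d, Eef1g, Eef2, Eif3a, Eif3e, Eif3f, Eif3h and Eif4b. Their median log2 fold change was -0.28 in Usp21 KO and -0.23 in dKO against WT, with 8 and 10 of 10 below 0, and -0.10 in dKO against Usp21 KO, with 6 of 10 below 0. For the other 45 genes the medians were -0.03, -0.06 and -0.02, with 30, 33 and 25 below 0. By library totals the 10 listed genes still lay below 0 in dKO against WT, with a median of -0.13, while the other 45 had a median of 0.04 and 13 below 0. In dKO against Usp21 KO the medians by library totals were -0.01 and 0.07. The 30 bases from 10 before to 20 after the annotated start are shown for the 6 listed genes that the RefSeq promoter table (GRCm38.p6) holds, and for Eif3g, which fell in dKO but is not on the list. Capitals mark a C followed by at least 4 letters that are each C or T, read on the strand of the gene.
Eef1a1, chr9:78481705-78481734, minus strand: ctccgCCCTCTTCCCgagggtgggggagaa
Eef2, chr10:81176621-81176650, plus strand: aaggccgggcgttgacgtcagcggtCTCTT
Eif3f, chr7:108934405-108934434, plus strand: tctaggCTCTCTCTCTTTCTCggcaagatg
Eif4b, chr15:102073763-102073792, plus strand: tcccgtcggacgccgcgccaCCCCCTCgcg
Eef1b2, chr1:63176821-63176850, plus strand: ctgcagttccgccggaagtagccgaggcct
Eif3a, chr19:60790674-60790703, minus strand: ctcgggcggcggcgctgccgccgcgaggga
Eif3g, chr9:20898571-20898600, minus strand: acccgggctgggagctgcgtggagttaaga
Eef1a1 and Eif3f hold a run that spans the annotated start, Eef2 and Eif4b one further downstream, and Eef1b2, Eif3a and Eif3g none in this window. The run of Eef2 reaches the end of the window, so its full length is not shown. Whether any of these runs is the stretch with which the mRNA begins was not tested. Windows of 43 of the 55 genes were searched, and 17 of these genes had such a run in a window. Eif1a and Eif4ebp3 were left out of the search by their chromosome, so whether the table holds them is not shown. Per window the share was 36.4% for the factor genes (20 of 55 windows) and 35.8% over all 32851 windows, so such a run is common. These shares may not cover the same chromosomes, so the difference between them is not interpreted. Of the 6 listed genes shown, 4 had one. The search took a run anywhere in the window, bases before the start included, so it cannot show whether an mRNA begins with one. Annotated starts can differ from the start used in a cell, and the window was chosen after the sequences had been seen.

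Outside the factor genes, 11 other TOP mRNAs were followed. In dKO against WT, 2 of 11 fell and 0 rose. Rack1, a scaffold protein on the small ribosomal subunit, had 2352, 2204 and 2308 CPM in WT, 1775, 1559.5 and 1942 in Usp21 KO and 1781, 1718 and 1578 in dKO, a log2 fold change of -0.44 ± 0.09 (adjusted p = 0.0195). Naca, a subunit of the nascent polypeptide complex at the ribosome exit, changed by -0.37 ± 0.06 (adjusted p = 0.00762), from 86.1 ± 0.968 to 66.4 ± 2.38 CPM. Both lay below WT in all Usp21 KO libraries too, at -0.38 ± 0.09 (adjusted p = 0.265) and -0.34 ± 0.06 (adjusted p = 0.204). The call of Naca in dKO held in every alternative run; that of Rack1 was lost in each of the 6 fits without 1 library (adjusted p = 0.0529 to 0.0956).

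Subunits of eIF3 differed among themselves. The 13 genes summed to 3506, 3492 and 3659 CPM in WT, 3328, 3272 and 3324 in Usp21 KO and 3282, 3161 and 3146 in dKO, or 93.1% of WT in Usp21 KO and 89.97% in dKO, with no overlap with WT in either. By library totals the dKO sum was 96.4% of WT and overlapped it, while the Usp21 KO sum was 93.5% and did not. Eif3g, an RNA-binding subunit that contacts the mRNA channel (ENSMUSG00000070319, chromosome 9, 20894349 to 20898623, minus strand), was the subunit that passed the test. It had 189, 177 and 194 CPM in WT, 185, 166 and 178 in Usp21 KO and 162, 152 and 141 in dKO. All dKO libraries lay below all WT and all Usp21 KO libraries. It fell by a log2 fold change of -0.30 ± 0.07 in dKO against WT (adjusted p = 0.0411). This call was lost with library totals (adjusted p = 0.119), with the replicate number as a block (adjusted p = 0.058) and in each of the 6 fits without 1 library (0.0603 to 0.146).

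In Usp21 KO the lowest subunits were others. Eif3h, a subunit of the MPN pair with Eif3f, had 344, 319 and 320.2 CPM in WT, 249, 259 and 262 in Usp21 KO and 303, 275 and 274 in dKO, a log2 fold change of -0.35 ± 0.07 (adjusted p = 0.204). The Usp21 KO libraries were all below the dKO libraries, which were all below WT. Eif3e, a core scaffold subunit, had 223, 234 and 205 CPM in WT, 171, 159 and 186 in Usp21 KO and 175, 192 and 207 in dKO, a log2 fold change of -0.36 ± 0.09 in Usp21 KO (adjusted p = 0.266). Here Usp21 KO lay wholly below WT, while dKO overlapped both.

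Eif3m, another core scaffold subunit, stood at -0.35 ± 0.07 in Usp21 KO (adjusted p = 0.219) and at -0.22 ± 0.07 in dKO (adjusted p = 0.103). Eif3k, a small peripheral subunit, stood at -0.25 ± 0.07 and -0.26 ± 0.07 (adjusted p = 0.301 and 0.0549), and Eif3i, a WD-repeat subunit, at -0.25 ± 0.07 and -0.19 ± 0.07. DESeq2 called Eif3e, Eif3h, Eif3k and Eif3m lower in Usp21 KO. Against these, the 3 large subunits lay slightly above 0 in Usp21 KO: Eif3a at 0.07, Eif3b at 0.11 and Eif3c at 0.09. In dKO they stood at -0.15, -0.01 and -0.06 against WT.

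The direct comparison of the knockouts gave 0 eIF3 subunits past the threshold. Eif3a, the largest scaffold subunit, had the smallest p among them, at -0.21 ± 0.07 in dKO against Usp21 KO (adjusted p = 0.0934), followed by Eif3g at -0.22 ± 0.07 (adjusted p = 0.107). Eif3a had 486, 523 and 537 CPM in WT, 572, 526 and 524 in Usp21 KO and 482, 459.6 and 457 in dKO, with dKO wholly below Usp21 KO and WT. Eif3f, the highest subunit per length, had 687 ± 25.6 CPM in WT, against 616 ± 9.57 in Usp21 KO and 600.1 ± 30.9 in dKO. Eif3d, a cap-binding subunit, stood at -0.18 ± 0.07 in dKO (adjusted p = 0.181), and Eif3l at 0.02 ± 0.06 (adjusted p = 0.914). Eif3j1, the lowest subunit, had 7.13 ± 0.45, 6.77 ± 0.857 and 7.11 ± 1.11 CPM in the 3 groups, and its counts are uncertain because of its copy Eif3j2.

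**Figure D4:**
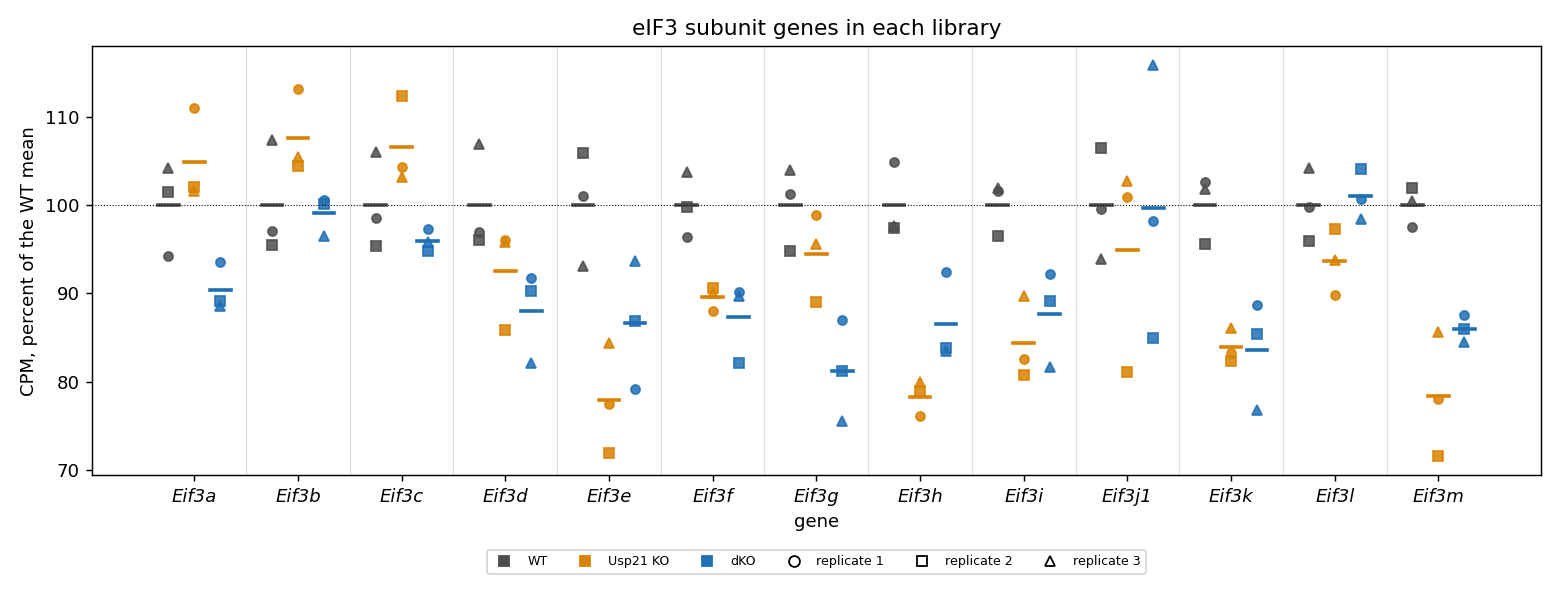
CPM of the 13 eIF3 subunit genes in each library as a percent of the gene's WT mean; bars mark group means, colours the genotype and symbols the replicate number. Eif3e, Eif3h and Eif3m are lowest in Usp21 KO, with means of 77.9%, 78.3% and 78.4% of WT, and Eif3g is lowest in dKO, with 81.2%.

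The tRNA carrier of initiation, eIF2, and its exchange factor eIF2B showed no called change. The summed eIF2 level was 195, 201 and 179 CPM in WT, 189.7, 173 and 180.0 in Usp21 KO and 197, 204 and 213 in dKO. The dKO sums lay wholly above Usp21 KO and overlapped WT. By library totals dKO stood at 114% of WT and did not overlap it. With TMM scaling, however, 3 of the 4 eIF2 genes lay below 0 in dKO against WT, with a class median of -0.09. The gene above 0 was Eif2s3y, with means of 88.5 CPM in WT and 108 in dKO. Eif2s1, the alpha subunit that stress kinases phosphorylate, stood at -0.16 ± 0.07 in Usp21 KO and -0.10 ± 0.07 in dKO (adjusted p = 0.459 and 0.437). Eif2s2, the beta subunit, stood at -0.26 ± 0.08 in Usp21 KO (adjusted p = 0.324), with libraries at 35.9, 33.0 and 35.0 CPM in WT and 27.3, 29.5 and 29.8 in Usp21 KO, which do not overlap.

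The gamma subunit is encoded by a pair of near-identical genes, so the split of reads between them is uncertain. Eif2s3y, on the Y chromosome, was counted in all 9 libraries, with 88.2, 102 and 75.3 CPM in WT, 99.6, 79.4 and 90.1 in Usp21 KO and 99.4, 113 and 112 in dKO. It had the highest fold change of any member in dKO against WT, 0.29 ± 0.12 (adjusted p = 0.178), with ranges that overlapped. Its partner Eif2s3x stood at 7.48 ± 0.873, 7.46 ± 0.341 and 6.49 ± 0.700 CPM. The other Y-linked genes measured did not pass: Ddx3y stood at -0.01 ± 0.13, Uty at 0.14 ± 0.13 and Kdm5d at 0.08 ± 0.06 in dKO against WT (adjusted p = 0.974, 0.549 and 0.437).

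The 5 eIF2B subunit genes, Eif2b1 to Eif2b5, summed to 264 ± 11.4 CPM in WT, beside 264 ± 10.5 in Usp21 KO and 264 ± 10.5 in dKO, the steadiest class by its group means, although by library totals dKO stood at 107% of WT. Within it the smallest adjusted p in dKO against WT was 0.394, for Eif2b4 at 0.11 ± 0.07. Eif2b3 was the lowest subunit, at 16.7 ± 1.55 CPM in WT. Of the factors that can deliver initiator tRNA outside the main route, Eif2a had 64.2, 74.0 and 67.5 CPM in WT, 58.8, 60.9 and 58.5 in Usp21 KO and 67.2, 64.7 and 74.5 in dKO. Its Usp21 KO libraries lay below those of both other groups, at -0.21 ± 0.08 against WT (adjusted p = 0.371), and dKO stood 0.21 ± 0.08 above Usp21 KO (adjusted p = 0.126). Eif2d stood at -0.11 ± 0.07 in that comparison (adjusted p = 0.337).

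The kinases and phosphatase subunits that act on eIF2 gave 0 of 8 genes past the threshold in each comparison. In dKO against WT, Eif2ak4 (GCN2, the sensor of uncharged tRNA) stood at 0.33 ± 0.08 (adjusted p = 0.0508) and Eif2ak2 (PKR, the sensor of double-stranded RNA) at 0.40 ± 0.12 (adjusted p = 0.072). Of 13 tested targets of the integrated stress response, 1 rose in dKO, Psat1, an enzyme of serine synthesis. Psat1 had 62.4, 57.5 and 62.4 CPM in WT, 56.5, 57.9 and 59.7 in Usp21 KO and 87.5, 90.7 and 84.5 in dKO. All dKO libraries lay above all others, at 0.53 ± 0.06 against WT (adjusted p = 0.00256) and 0.59 ± 0.06 against Usp21 KO (adjusted p = 0.00122), and both calls held in every alternative run. Other targets did not pass: Phgdh, the enzyme before Psat1 in the pathway, stood at 0.38 ± 0.11 in dKO against WT (adjusted p = 0.0754), Trib3 at -0.88 ± 0.23 against Usp21 KO (adjusted p = 0.0553), and Atf4, the transcription factor of the response, at -0.37 ± 0.14 against WT (adjusted p = 0.148).

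Factors of start codon selection and scanning showed no called change. Eif1ax, the X-linked eIF1A gene, had 73.8, 60.0 and 65.9 CPM in WT, 53.5, 57.8 and 59.6 in Usp21 KO and 67.9, 68.2 and 73.0 in dKO. Usp21 KO lay wholly below both other groups, and dKO stood 0.29 ± 0.08 above Usp21 KO (adjusted p = 0.0714), the highest fold change in that comparison. By library totals (adjusted p = 0.0355), without Usp21 KO replicate 2 (adjusted p = 0.0341) and in DESeq2 (adjusted p = 0.0272) this difference passed. Its near copy Eif1a stood at 0.02 ± 0.09 (adjusted p = 0.932). Eif1b stood at -0.21 ± 0.11 in Usp21 KO (adjusted p = 0.54), and Eif1ad, an eIF1A-domain protein, at -0.09 ± 0.07 in dKO against Usp21 KO.

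Eif1, the main start codon gatekeeper, had 174, 241 and 166 CPM in WT, 212, 148 and 149 in Usp21 KO and 165, 157 and 144 in dKO. WT replicate 2 and Usp21 KO replicate 1 were the highest libraries. The same libraries were the highest for Eif4a2, a paralogue of the cap helicase, with 409, 504 and 351 CPM in WT, 417, 299 and 339 in Usp21 KO and 368, 392 and 373 in dKO, and for Ppp1r15a (GADD34, a stress-induced phosphatase subunit for eIF2), with 273, 1176 and 212 CPM in WT, 681, 224 and 164 in Usp21 KO and 187, 278 and 144 in dKO. This pattern was noted after the values were seen. It widened the spread within WT and Usp21 KO, and the fold changes of Eif1 (-0.32 ± 0.18 in dKO against WT) and Eif4a2 (-0.16 ± 0.14) had adjusted p of 0.323 and 0.558.

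The cap-binding and unwinding factors also gave 0 called genes. Eif4b, which stimulates the helicase eIF4A, had 689, 712 and 775 CPM in WT, 774, 751 and 749 in Usp21 KO and 655, 628 and 649.5 in dKO. All dKO libraries lay below all WT and Usp21 KO libraries, with a log2 fold change of -0.24 ± 0.06 against Usp21 KO (adjusted p = 0.0638) and -0.17 ± 0.06 against WT (adjusted p = 0.155). DESeq2 called the difference from Usp21 KO (adjusted p = 0.00484), as did the edgeR fit without Usp21 KO replicate 2 (adjusted p = 0.0333). Eif4h, a related stimulator, stood at -0.18 ± 0.10 against Usp21 KO (adjusted p = 0.282). By library totals the summed level of Eif4b and Eif4h in dKO was 98.1% of WT and overlapped it. It was 91.7% of Usp21 KO, without overlap.

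The helicase genes Eif4a1 and Eif4a2 stood at 76.8 ± 4.53 and 378 ± 12.8 CPM in dKO and 83.8 ± 2.79 and 421 ± 77.1 in WT. Eif4a3, a helicase of the exon junction complex rather than of initiation, stood at -0.04 ± 0.06 in dKO against WT. Eif4e, the cap-binding protein, had 33.0, 33.6 and 31.7 CPM in WT, 28.7, 30.4 and 29.0 in Usp21 KO and 31.6, 31.5 and 34.6 in dKO, wholly lower in Usp21 KO than in both other groups, at -0.16 ± 0.07 against WT (adjusted p = 0.485). Its homologues Eif4e2 and Eif4e3 stood at -0.02 ± 0.09 and -0.09 ± 0.09 in dKO against WT.

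The eIF4G scaffolds were close to level, with summed means of 2284, 2270.4 and 2289 CPM in WT, Usp21 KO and dKO, although by library totals dKO stood at 107% of WT without overlap. Eif4g1 was the gene with all Usp21 KO libraries above WT: it had 619.8, 571 and 640.0 CPM in WT, 693, 653 and 679 in Usp21 KO and 618, 621 and 581 in dKO, a log2 fold change of 0.15 ± 0.07 (adjusted p = 0.48). Eif4g2, a homologue that works without eIF4E, had the smallest spread in WT, 1279 ± 3.60 CPM, and stood at 0.11 ± 0.07 in dKO against Usp21 KO (adjusted p = 0.417). Eif4g3 stood at -0.05 ± 0.08 in dKO against WT.

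Proteins that hold eIF4E back were represented mainly by Eif4ebp2, at 97.3 ± 7.45 CPM per kb in WT, against 4.62 ± 0.466 for Eif4ebp1 and 0.611 ± 0.459 for Eif4ebp3. Eif4ebp2 stood at -0.15 ± 0.07 in dKO against Usp21 KO (adjusted p = 0.224). Eif4ebp1 had 11.2, 9.22 and 9.96 CPM in WT, 9.20, 16.1 and 11.7 in Usp21 KO and 12.1, 9.87 and 9.55 in dKO, the highest fold change of any member in Usp21 KO, 0.28 ± 0.20 (adjusted p = 0.636), which came with the high value of Usp21 KO replicate 2. Eif4enif1, the eIF4E transporter, stood at 0.00 ± 0.08 in dKO against WT, with a 95% interval of -0.17 to 0.18.

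Of 16 regulators of the cap complex, 2 fell in dKO against Usp21 KO. Mknk2, a kinase that phosphorylates eIF4E, had 595, 581 and 627 CPM in WT, 687, 733 and 638 in Usp21 KO and 512, 513 and 479.8 in dKO, a log2 fold change of -0.45 ± 0.07 (adjusted p = 0.00923). Larp1, the repressor of TOP mRNAs, had 280.2, 306 and 302 CPM in WT, 373, 301 and 337 in Usp21 KO and 247, 239.7 and 233 in dKO, a log2 fold change of -0.49 ± 0.08 (adjusted p = 0.0109). For both, all dKO libraries lay below all WT and Usp21 KO libraries, while against WT the values were -0.26 ± 0.07 (adjusted p = 0.0618) and -0.30 ± 0.08 (adjusted p = 0.058). Larp1 missed the threshold without dKO replicate 2 (adjusted p = 0.0541) or dKO replicate 3 (0.0595), and in the fit of the 6 libraries alone neither passed (0.0506 for Mknk2 and 0.0525 for Larp1). In Usp21 KO against WT, 0 of 16 passed, with Paip2 at -0.23 ± 0.08 and Mknk2 at 0.19 ± 0.07 (adjusted p = 0.346 and 0.385).

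The late initiation factors and eIF5A completed the set. Eif5, the GTPase activator of eIF2, and Eif5b, which joins the subunits, stood at 0.00 ± 0.11 and -0.07 ± 0.07 in dKO against WT (adjusted p = 0.988 and 0.545). Eif5a, the hypusine-bearing factor that eases peptide bonds at stall-prone residues, had 384, 449 and 411 CPM in WT, 400.2, 393 and 371 in Usp21 KO and 361, 372 and 336 in dKO. All dKO libraries lay below WT, at -0.22 ± 0.08 (adjusted p = 0.12). Its minor paralogue Eif5a2 stood at 0.27 ± 0.13, on the other side of 0 (adjusted p = 0.247). By library totals the summed level of Eif5a and Eif5a2 in dKO was 93.1% of WT and overlapped it.

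Eif6, which keeps the large subunit from joining too early, had 99.6, 89.1 and 105 CPM in WT, 104, 104 and 103 in Usp21 KO and 91.1, 83.7 and 84.7 in dKO. The Usp21 KO libraries were close together, and all dKO libraries lay below them, at -0.26 ± 0.07 (adjusted p = 0.0638). Against WT the value was -0.18 ± 0.07 (adjusted p = 0.175). Both DESeq2 (adjusted p = 0.026) and the fit without Usp21 KO replicate 2 (adjusted p = 0.0497) called the difference from Usp21 KO.

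The same test gave few calls in the rest of the translation machinery. Of 14 tested enzymes that modify the factors, 0 passed in any comparison. The closest was Eef2k, the kinase that inhibits eEF2, with 19.8, 21.4 and 26.1 CPM in WT, 25.2, 24.0 and 22.7 in Usp21 KO and 16.3, 18.9 and 17.7 in dKO, a log2 fold change of -0.45 ± 0.12 in dKO against Usp21 KO (adjusted p = 0.0541). Of 10 other initiation helpers, 1 fell in dKO against Usp21 KO, Abcf1, an ATPase that binds eIF2, at -0.28 ± 0.07 (adjusted p = 0.043), and 0 passed against WT. The call of Abcf1 was lost by library totals (adjusted p = 0.116) and without Usp21 KO replicate 1 or any 1 of the dKO libraries (0.0854 to 0.148).

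Of 22 genes of cytosolic aminoacyl-tRNA synthetases and their scaffolds, 1 was called. Dars, the aspartate enzyme, had 125, 128 and 115 CPM in WT, 94.6, 99.6 and 103 in Usp21 KO and 116, 124 and 132 in dKO. It was higher in dKO than in Usp21 KO by 0.33 ± 0.07 (adjusted p = 0.0312), with dKO at the WT level (0.02 ± 0.07, 95% interval -0.14 to 0.17). This call was lost without Usp21 KO replicate 1 or any 1 of the dKO libraries (adjusted p = 0.0564 to 0.112). Termination and recycling factors (6 genes), selenocysteine elongation (4) and mitochondrial translation factors (10) gave 0 calls in each comparison. The smallest adjusted p among them in dKO against WT was 0.138, for Mtif3, a mitochondrial initiation factor, at -0.23 ± 0.08.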

How the data were processed

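RNA of Foxp3 reporter-sorted spleen Treg cells was sequenced in 9 libraries, 3 per genotype. Values in the deposited table are raw counts, 1 row per Ensembl gene, which the authors had not normalized. Per the submitters' processing notes, cutadapt 1.13, STAR, HTSeq 0.6.1p1 and DESeq2 1.14.1 belong to the processing, on build mm10. Strand option and annotation release are not given in the sources used here, so overlapping antisense genes may share reads. Coordinates and exon lengths came from GENCODE M21 (54079 of 54232 IDs matched).

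Counts were tested with edgeR 4.0.16 in R 4.3.3: filterByExpr, TMM scaling, 1 robust quasi-likelihood fit of the 9 libraries by group alone, and Benjamini-Hochberg adjustment over the 14994 genes tested. Fold changes are on the log2 scale with the fit's SE and 95% interval. CPM used TMM-scaled totals. The procedure was tested on simulated data with changes of 1.5-fold or more. All member changes in the main fit were smaller than that, so the simulation does not show how changes of their size are detected. No pair of libraries was a duplicate (lowest chi-square per degree of freedom 5.08). Deviations from the group means correlated above 0.1 in each same-numbered pair of WT and dKO libraries (r = 0.164, 0.326 and 0.130). The labels state no pairing and libraries of unlike number were not compared, so these values do not establish one. The main fit used no block. A block value is given beside a result of dKO against WT where it changes the call. Alternatives were median-ratio factors, library totals, no filter, the filter of 10 counts in 3 libraries, DESeq2 1.42.0, limma 3.58.1 (voom), a replicate block, the 6 libraries of a comparison alone, and leaving out each library.

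The members, the factor classes and the gene lists were chosen with earlier results of these data known. Named genes were Usp21, Usp22 and Foxp3; members that passed, up to 2 by smallest p in classes without one, and the highest and lowest of each class per length; and in the other lists up to 4 genes that passed or up to 2 by smallest p. Ppp1r15a, Atf4, Itgam, Lyz2 and the per-library values of members outside this rule were chosen after their values were seen.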

Additional observations from a re-analysis of the deposited data

How the results depend on the processing

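Totals were 18067377 counts or more per library; how far depth, the spread between libraries or their number limited the calls was not tested. Median-ratio factors, limma voom, no filter and the filter of 10 counts in 3 libraries left the member counts at 0 in Usp21 KO and 3 in dKO, each against WT, and at 0 between the knockouts. In the same order, DESeq2 gave 5, 7 and 5 members and 216, 1581 and 1696 genes in all. The 6 libraries alone gave 8 members in dKO against WT, and 1, 2315 and 147 genes in all. Without a filter, 40 genes passed in Usp21 KO against WT. By library totals, 2 members passed in dKO against WT, beside 1043 genes in all. In dKO against Usp21 KO 2 members passed (Eif1ax and Eif2a, higher), a count not set here against the share of all genes in that fit. The member medians by library totals were 0.014 in dKO against WT and 0.066 in dKO against Usp21 KO.

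Leaving out each library gave 0 members throughout in Usp21 KO against WT, 0 to 1 in dKO against WT and 0 to 7 in dKO against Usp21 KO. Over all genes the counts ran from 2 to 17, from 193 to 379 and from 168 to 2192, with 17 and 2192 both found without Usp21 KO replicate 2. The median in dKO against Usp21 KO ran from -0.049 to 0.017. Whether same-numbered libraries are paired was not established, with r from 0.130 to 0.326 between WT and dKO and from -0.303 to 0.183 in the other comparisons. With a replicate block the member counts were 0, 2 and 0, since Eif3g had an adjusted p of 0.058 in dKO against WT. Over all genes, 606 passed with the block in dKO against WT, against 866 in the main fit, and 461 in dKO against Usp21 KO. No member with an unadjusted p under 0.05 changed sign under any alternative, nor did a gene of the other lists that passed. Signs were not checked for Usp21, Usp22, the cell cycle and sex-linked genes and the markers other than the myeloid ones. The cause of each shift was not tested.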

Other observations

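Across the 55 genes, the log2 fold change in dKO against WT had a Spearman rho of -0.350 with the mean level and 0.295 with exon length, against -0.150 and 0.047 over 14987 genes with a length. In Usp21 KO against WT the values for the factor genes were -0.029 and 0.160, and for all genes -0.029 and 0.117. These are descriptions over genes of the same libraries, which are not independent, and carry no test. Among the factor genes, Eif4ebp3 varied most between replicates in WT and Usp21 KO, with coefficients of variation of 75.0% and 51.2%, and Eif3j1 in dKO, with 15.6%. The steadiest were Eif4g2 in WT (0.282%), Eif6 in Usp21 KO (0.703%) and Eif4enif1 in dKO (1.32%).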
